A study of Rattus norvegicus with 44 samples.

Results

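Interferon response and major histocompatibility complex (MHC) genes were followed in the livers of rats given compound R1 or R2. The set held every probe set whose annotation gave 1 gene symbol that begins with RT1-, Irf, Ifi, Ifit, Isg, Oas or Gbp, or with Stat and a digit, or that equals Mx1, Mx2, Cd74, B2m, Tap1 or Tap2. These were 62 probe sets of 39 genes, of 8740 on the array other than controls. By role they were 16 probe sets of 11 transcription factor genes, 7 of interferon-induced effectors, 12 of MHC class I genes with B2m, 3 of the peptide transporter genes Tap1 and Tap2, and 24 of MHC class II genes with Cd74. Of these, 55 probe sets of 35 genes were bright enough to be tested (highest group mean at least 9.17 units of signal). The 7 others had highest group means of 0.689 to 7.31 and the dimmest member tested 10.0. Isg15, Isg20, Ifit1, Ifit2 and Ifit3 were not analysed here.

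All animals were male Wistar rats, 8 weeks old, without genetic modification stated in the labels. They were dosed once daily by oral gavage with a citric acid buffer, the vehicle, or with R1 or R2, which the labels name by code only, and killed 24 h after the last dose. RNA came from a slice of the left lateral lobe, 1 array per sample. Study 1 (24 h) had 3 vehicle arrays, then 4, 3 and 3 arrays at 10, 30 and 100 mg/kg/day of R1. Study 2 (336 h) had 4 vehicle arrays, then 5 and 4 arrays at 20 and 100 mg/kg/day of R1. Study 3 (336 h) had 4 arrays of R1 at 30 mg/kg/day and 5 of vehicle. Study 4 (24 h) had 5 arrays at 300 mg/kg/day of R2 and 4 vehicle arrays. The labels number the replicates and do not give their origin, and p-values therefore reflect only how these 44 arrays vary, which may be partly technical. A liver slice holds hepatocytes with Kupffer cells, endothelium and blood leukocytes, and fewer cells of a type cannot be told apart from less RNA per cell.

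Interferons bound to their receptors activate Stat proteins, which with the interferon regulatory factors (Irf) switch on antiviral effectors such as the Mx and Oas proteins and much of antigen presentation. MHC class I molecules, which need B2m and peptides pumped by Tap1 and Tap2, are carried by nearly all cells. Class II molecules, assembled on the invariant chain Cd74, are carried mainly by macrophages, dendritic cells and B cells, which in the liver include the resident macrophages, the Kupffer cells. The rat MHC is called RT1, and 18 of the 38 member genes with a RefSeq location lay on chromosome 20.

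Member genes called in at least 2 comparisons with vehicle and with sequence before their annotated start are shown by that sequence, because interferon-responsive and class II promoters carry recognisable short motifs. Bases are from RefSeq (GRCr8), at most 250 before the start, 5′ to 3′ on the gene's strand, and capitals mark the interferon-stimulated response element core (GAAA, any NN, GAAA) or the Y box (CCAAT), either of which may read on the other strand. RT1-S3 lay at chr20:2675278-2675462 (plus strand), Tap1 at chr20:4668544-4668793 (minus), Cd74 at chr18:56526956-56527070 (plus), RT1-Ba at chr20:4576807-4577056 (plus) and RT1-Da at chr20:4515165-4515392 (plus).
RT1-S3: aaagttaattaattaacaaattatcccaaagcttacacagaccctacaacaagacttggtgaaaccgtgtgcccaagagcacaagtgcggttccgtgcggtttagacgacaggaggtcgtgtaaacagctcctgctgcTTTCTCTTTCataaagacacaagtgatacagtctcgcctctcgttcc
Tap1: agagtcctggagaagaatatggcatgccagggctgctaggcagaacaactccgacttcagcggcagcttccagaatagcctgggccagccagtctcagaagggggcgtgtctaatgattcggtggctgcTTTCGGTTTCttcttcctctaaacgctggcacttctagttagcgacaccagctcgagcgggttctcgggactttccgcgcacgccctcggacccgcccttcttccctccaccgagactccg
Cd74: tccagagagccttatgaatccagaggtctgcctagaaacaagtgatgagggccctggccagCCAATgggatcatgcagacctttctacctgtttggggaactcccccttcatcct
RT1-Ba: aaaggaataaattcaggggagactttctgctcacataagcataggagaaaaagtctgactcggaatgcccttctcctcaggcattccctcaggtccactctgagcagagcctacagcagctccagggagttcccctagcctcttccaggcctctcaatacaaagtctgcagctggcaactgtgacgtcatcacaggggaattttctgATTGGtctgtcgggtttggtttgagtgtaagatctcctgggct
RT1-Da: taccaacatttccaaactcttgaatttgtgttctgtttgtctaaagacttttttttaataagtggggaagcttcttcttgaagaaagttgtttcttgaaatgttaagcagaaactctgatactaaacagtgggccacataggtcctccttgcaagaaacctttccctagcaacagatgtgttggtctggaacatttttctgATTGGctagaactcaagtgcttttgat
The class I gene RT1-S3 and the transporter gene Tap1 each held 1 response element core and no Y box in the bases shown, and the 3 class II genes each held 1 Y box and no response element core. Over the 250-base windows of the promoter table, on both strands, the response element core was found in 10 of 35 member genes with a promoter in the table (28.6%) and in 3.41% of 33469 promoters. The Y box was found in 23 member genes (65.7%) and in 34.0% of promoters, and the Stat site TTCNNNGAA in 6 (17.1%) and in 7.67%. These windows run up to the table's own start, which in 22 of the members' windows lies inside the gene as annotated, so they hold bases not shown here. The RT1-S3 window, for one, held a Y box that is counted here and lies outside the bases shown. These matches describe letters in a window and do not show binding.

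Every array had the same sorted signal values (median 14.5), so a level is relative to the other probe sets of its array. Within groups, array correlations ran from 0.924 to 0.974 for the 6361 tested probe sets. Hepatocyte markers summed to 83516 to 109685 units on every array. Each change is a log2 ratio ± SE, fitted with limma to log2(signal + 2.89), and was called where its p, adjusted by Benjamini-Hochberg over the 6361, was under 0.05. Because of the added 2.89 these changes understate those of dim probe sets. Single hepatocyte markers did change: of 15 probe sets, 3 were called lower with R2 and 0 higher. These were of Cps1 (-1.92 ± 0.23 and -1.68 ± 0.22) and Tat (-1.13 ± 0.28). At 100 mg/kg/day of R1 for 336 h, 1 was called lower, of Cps1 (-0.72 ± 0.23), and 2 higher, of Apoa1 (0.39 ± 0.11 and 0.43 ± 0.13). At 30 mg/kg/day for 336 h, 3 were called lower, of Cps1 and Serpina1, and 2 higher, of Apoa1. At 20 mg/kg/day for 336 h, 2 of Serpina1 were lower, and at 100 mg/kg/day for 24 h, 2 of Cps1, with 0 higher at either. At 10 and 30 mg/kg/day for 24 h, 0 were called. Probe sets of 1 gene are numbered as in the plots, and they measure the same RNA. Some RT1 genes have near-identical copies: 10 RT1 probe sets carry the array's suffix for shared or family sequences, and their values are uncertain as to the gene.

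In the comparisons with vehicle, 18 probe sets of 11 genes were called at least once, with 33 calls in all, and 37 were called in none. These pooled counts have no share of all probe sets beside them and are not read as particular to the members. Shares are given for each comparison below. The largest count was in livers given 100 mg/kg/day of R1 for 336 h, where 14 of 55 member probe sets were lower (25.5%) and 0 were higher, beside 5.2% of all probe sets lower and 5.11% higher. These 14 probe sets belonged to 7 genes: Cd74, RT1-Ba, RT1-Bb, RT1-Da, RT1-S3, Irf7 and Irf8. The median change of the 55 members there was -0.74, against -0.02 for all probe sets, and 49 of 55 members were negative. Without vehicle replicate 1 of study 2, whose class II signals were high, 8 of the 14 calls were made, 4 of them of class II. Beside this result, 2 of 4 leukocyte markers were called lower. Of 9 Kupffer cell marker probe sets 3 were called lower and 2 higher, as given with the class II genes.

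The 20 mg/kg/day dose of R1 for 336 h lowered 2 members (3.64%, beside 1.89% of all probe sets), Irf7 and RT1-S3, and raised 0 (2.55% of all). The 30 mg/kg/day dose for 336 h lowered 5 members of 3 genes (9.09%, beside 6.01%), RT1-S3, Irf7 and Tap1, a share near the background, and raised 0 (5.27% of all). After 24 h each dose of R1 lowered 1 member (1.82%): Irf1 at 10 mg/kg/day (background 0.204%), Mx1 at 30 (0.252%) and RT1-S3 at 100 (2.44%). At these doses 0 members were higher, beside 1.04%, 1.48% and 3.96% of all probe sets. In no comparison of R1 with vehicle was a member higher with limma, although 7 to 28 of 55 had an unadjusted p under 0.05 in either direction. R2 at 300 mg/kg/day for 24 h raised 6 members (10.9%, beside 7.44% of all) and lowered 3 (5.45%, beside 7.88%), both shares near the background.

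**Figure D1:**
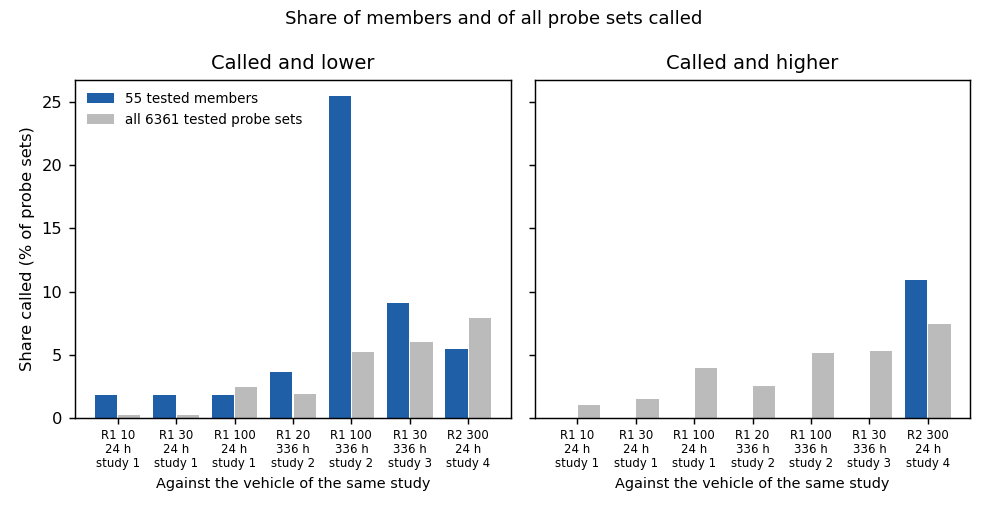
Share of the 55 tested members and of all 6361 tested probe sets that were called lower or higher (percent, adjusted p under 0.05 by limma), for each comparison of a compound with the vehicle of its study. The members' share lower after 336 h at 100 mg/kg/day of R1 reached 25.5%, against 5.2% of all probe sets.

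**Figure D2:**
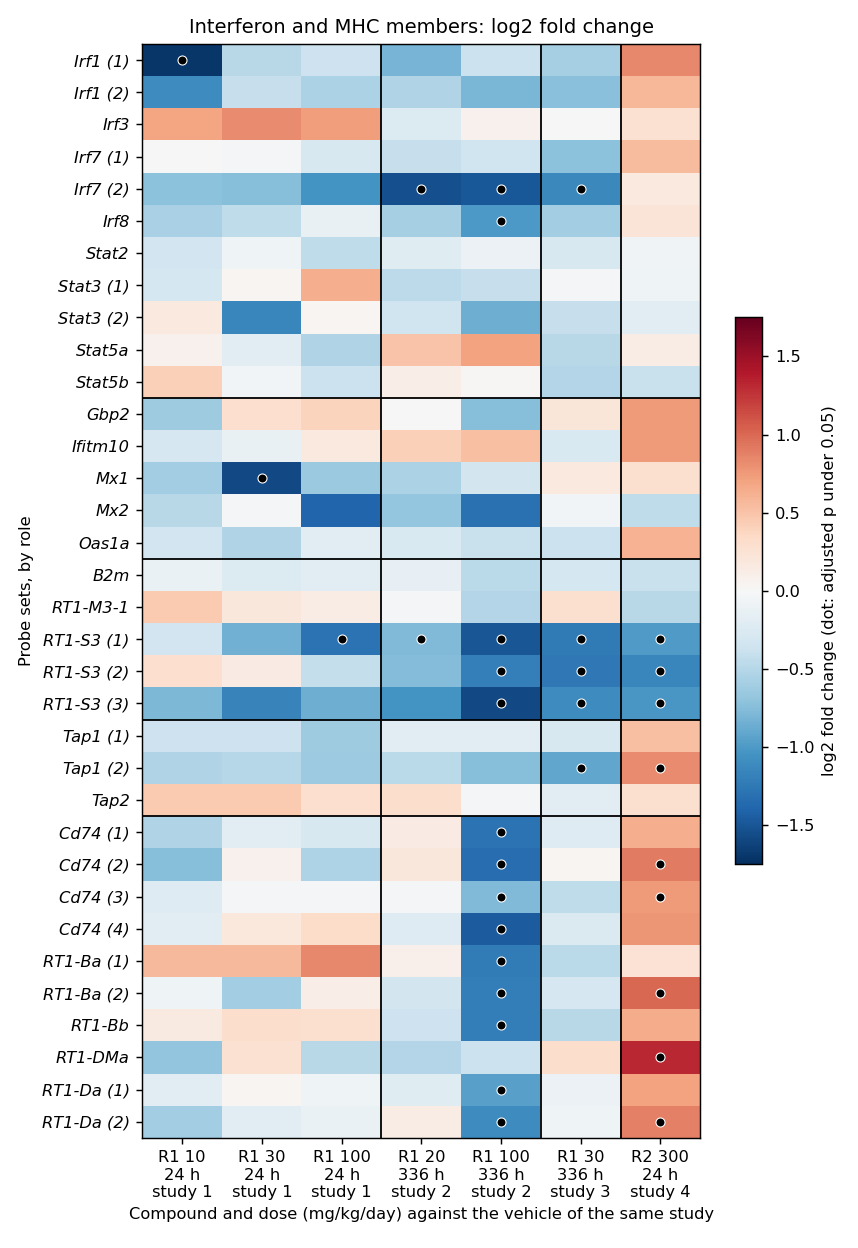
Log2 fold change of 34 named member probe sets (rows, by role) in the 7 comparisons with vehicle (columns), with color from lower to higher than vehicle and a dot where a probe set was called. The 14 dots at 100 mg/kg/day of R1 for 336 h lie mostly in the class II rows, and the RT1-S3 probe set 1 row has dots in 5 columns.

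Among transcription factors, Irf7, which drives the production of type I interferons, was lower after 336 h of R1 in both studies of that time. In study 2, Irf7 probe set 2 had signals of 46.2, 33.2, 34.3 and 36.1 with vehicle. It had 25.8, 14.7, 5.08, 6.87 and 9.52 at 20 mg/kg/day and 5.12, 18.4, 14.7 and 11.2 at 100 mg/kg/day. Every R1 array lay below the lowest vehicle array. The changes were -1.54 ± 0.37 at 20 mg/kg/day (adjusted p = 0.00568) and -1.48 ± 0.39 at 100 (adjusted p = 0.00628), the second of which lost its call without R1 replicate 1 (adjusted p = 0.0547). In study 3, the signals were 18.6, 19.4, 25.0 and 17.6 at 30 mg/kg/day, against 18.8, 65.3, 48.2, 74.1 and 51.2 with vehicle. The groups overlapped through vehicle replicate 1 alone, and the change was -1.13 ± 0.37, adjusted p = 0.0361. That call ended without any 1 of R1 replicates 1 to 4 or vehicle replicates 2 to 5 (adjusted p 0.0535 to 0.11), with no filter on dim probe sets (0.0528) and with the replicate number as a block (0.0524).

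After 24 h, Irf7 probe set 2 had signals of 49.7, 56.7 and 55.6 with vehicle. The 10, 30 and 100 mg/kg/day arrays had 67.0, 37.8, 21.4 and 17.998, then 36.7, 33.6 and 24.0, then 26.2, 27.5 and 20.7. All arrays at the upper doses lay below the vehicle arrays, but the changes of -0.71 ± 0.42, -0.75 ± 0.44 and -1.04 ± 0.44 were not called (adjusted p = 0.609, 0.607 and 0.184). Irf7 probe set 1 was not called in any comparison with vehicle in the main analysis, with changes of -0.40, -0.35 and -0.72 at 20, 100 and 30 mg/kg/day for 336 h, so the probe sets of this gene had the same sign there and differed in size. With R2, probe set 2 had 37.9, 34.8, 21.4, 17.5 and 24.0, against 60.6, 14.6, 12.4 and 23.4 with vehicle. These groups overlapped, with a change of 0.17 ± 0.37, adjusted p = 0.824.

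Irf1, an interferon-gamma-induced factor that activates class I and transporter genes, was lower after 24 h at the lowest dose of R1. Irf1 probe set 1 had signals of 23.3, 22.8 and 48.2 with vehicle. At 10, 30 and 100 mg/kg/day it had 8.87, 17.1, 4.15 and 3.05, then 26.4, 11.7 and 26.7, then 12.9, 26.4 and 31.957. The lowest dose alone did not overlap the vehicle arrays. The change at 10 mg/kg/day was -1.71 ± 0.38, adjusted p = 0.00775, and it was not called without vehicle replicate 3 (0.122), with the replicate block (0.0789) or with study 1 fitted alone (0.0635). Probe set 2 changed by -1.10 ± 0.31 at 10 mg/kg/day without being called (adjusted p = 0.0707), again with no overlap. The dose of 100 mg/kg/day set against 10 mg/kg/day gave 1 higher member, Irf1 probe set 1 (1.34 ± 0.38, adjusted p = 0.03), where 2.31% of all probe sets were higher. That difference was not called without R1 10 replicates 3 or 4 or R1 100 replicates 2 or 3 (adjusted p 0.108 to 0.183), and ended also with 4 times the offset (0.0635), the replicate block (0.147) and the study alone (0.101). With R2, Irf1 probe set 1 had 61.9, 61.2, 26.4, 25.7 and 43.3, against 20.4, 19.4, 19.8 and 27.8 with vehicle. The R2 arrays were mostly higher and overlapped the vehicle arrays, and the change of 0.84 ± 0.33 was not called (adjusted p = 0.0807), except with 4 times the offset (0.0439) and without R2 replicates 3 (0.0452) or 4 (0.0414).

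Irf8, a factor of myeloid and B cell development, was lower at 100 mg/kg/day of R1 for 336 h, with signals of 9.06, 16.5, 9.06 and 6.81, against 33.2, 21.6, 17.0 and 22.1 with vehicle. Every R1 array lay below every vehicle array, and the change was -1.01 ± 0.25, adjusted p = 0.00431. At 20 mg/kg/day for 336 h Irf8 changed by -0.58 ± 0.24 (adjusted p = 0.195) and at 30 mg/kg/day by -0.60 ± 0.24 (adjusted p = 0.105), neither of them called, the second of which was called without vehicle replicate 1 of study 3 (0.0394). Irf3, which is present at rest and activated when viral nucleic acid is sensed, lay higher after 24 h of R1 without being called. Its signals were 54.7, 51.3 and 56.6 with vehicle. They were 81.6, 88.6, 105 and 84.0 at 10, 106, 85.2 and 105 at 30 and 93.0, 103 and 81.6 at 100 mg/kg/day. All R1 arrays lay above all vehicle arrays, and the changes of 0.69 ± 0.23, 0.83 ± 0.25 and 0.74 ± 0.25 were not called (adjusted p = 0.193, 0.0769 and 0.0634). The change at 100 mg/kg/day was called under 4 other settings, with adjusted p from 0.0286 to 0.0466, and that at 30 mg/kg/day under 2. After 336 h of R1 the same probe set changed by -0.23 to 0.08 over the 3 doses, with overlap throughout. The other Irf3 probe set did not show the 24 h difference, with changes of -0.09 ± 0.39, 0.00 ± 0.42 and -0.17 ± 0.42 at 10, 30 and 100 mg/kg/day.

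The Stat genes were called in no comparison with vehicle by the main limma analysis, and over all 15 tested transcription factor probe sets 2 to 6 per comparison had an unadjusted p under 0.05. Stat2, a carrier of the type I interferon signal, changed by -0.44 to -0.06 in the 7 comparisons. Stat3, the carrier of interleukin-6 signals in acute phase responses, changed by -1.14 ± 0.35 on probe set 2 at 30 mg/kg/day of R1 for 24 h (adjusted p = 0.0843) and by -0.86 ± 0.30 at 100 mg/kg/day for 336 h (adjusted p = 0.0585). The 336 h change of probe set 2 was called with 4 times the offset (adjusted p = 0.0257), no trend (0.0439), the replicate block (0.0388) and without vehicle replicate 2 (0.0269) or R1 replicate 1 (0.0363). Probe set 1 changed by 0.03 and -0.41 in those comparisons. On its brighter probe set, Stat5a, a carrier of growth hormone and cytokine signals, had 16.6, 15.8, 16.6 and 23.2 at 100 mg/kg/day for 336 h, against 10.9, 9.42, 12.6 and 6.97 with vehicle. The groups did not overlap, and the change of 0.71 ± 0.30 was not called (adjusted p = 0.139). The dimmer Stat5a probe set (median signal 5.69, against 14.9) was not called in any comparison with vehicle either. Stat5b, the main Stat of growth hormone signalling in the male liver, differed between doses after 24 h: it had 48.5, 40.3 and 43.9 at 100 mg/kg/day of R1, against 97.2, 82.0, 91.3 and 52.8 at 10. The difference was -0.80 ± 0.22, adjusted p = 0.0278, with 1.67% of all probe sets lower. It was not called without R1 10 replicates 1, 2 or 3 or any 1 of the R1 100 arrays (adjusted p 0.0614 to 0.12), or with the study alone (0.0798). Against vehicle, Stat5b changed by -0.38 ± 0.24 at 100 and 0.42 ± 0.22 at 10 mg/kg/day, neither of them called.

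Interferon-induced effectors gave 1 call in the 7 comparisons. Mx1, a GTPase that blocks virus replication, had signals of 24.4, 14.4 and 20.7 with vehicle after 24 h. At 10, 30 and 100 mg/kg/day of R1 it had 18.1, 9.94, 4.35 and 20.4, then 3.85, 2.16 and 9.40, then 7.22, 15.7 and 12.4. All 30 mg/kg/day arrays lay below all vehicle arrays, and the arrays of the doses on either side overlapped vehicle. The change at 30 mg/kg/day was -1.58 ± 0.43, adjusted p = 0.0453, and at 10 and 100 mg/kg/day it was -0.61 ± 0.40 and -0.65 ± 0.43 (adjusted p = 0.661 and 0.492). The call ended without R1 30 replicates 1 or 2 or any 1 vehicle array (adjusted p 0.0606 to 0.279) and under 5 other settings (0.0514 to 0.105). The effect of 30 mg/kg/day at 336 h minus that at 24 h was 1.76 ± 0.56 for Mx1 (adjusted p = 0.167), and in that comparison limma called 0 members, while 6 had an unadjusted p under 0.05. There 0.503% of all probe sets were higher and 0.456% lower.

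Mx2, another GTPase of that family, was not called in the main analysis. It had 6.69, 13.5, 4.10 and 4.29 at 100 mg/kg/day of R1 for 336 h, against 40.3, 13.8, 23.9 and 12.5 with vehicle. The groups overlapped through R1 replicate 2, with a change of -1.31 ± 0.45, adjusted p = 0.0519. With the replicate block that change was called (adjusted p = 0.0488), and likewise without vehicle replicate 2 (0.0481), vehicle replicate 4 (0.0373) or R1 replicate 2 (0.0232). At 100 mg/kg/day for 24 h Mx2 had 3.11, 4.11 and 7.22, against 24.4, 12.1 and 15.5 with vehicle. Those groups did not overlap, and the change was -1.38 ± 0.52, adjusted p = 0.109. Oas1a, an enzyme whose oligoadenylates activate RNase L, changed by -0.52 to 0.60 in the 7 comparisons without a call. Gbp2, an interferon-induced guanylate-binding protein, was dim, with group means reaching 12.047, and changed by -0.75 at 100 mg/kg/day of R1 for 336 h and by 0.75 with R2. Ifitm10, of the interferon-induced transmembrane family, changed by -0.29 to 0.74. Over the 6 tested effectors, 5 were negative at 10 and 30 mg/kg/day for 24 h and at 20 and 100 mg/kg/day for 336 h, and 4 of 6 were positive with R2, with 0 called by limma other than Mx1 and 0 to 2 per comparison at an unadjusted p under 0.05.

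**Figure D3:**
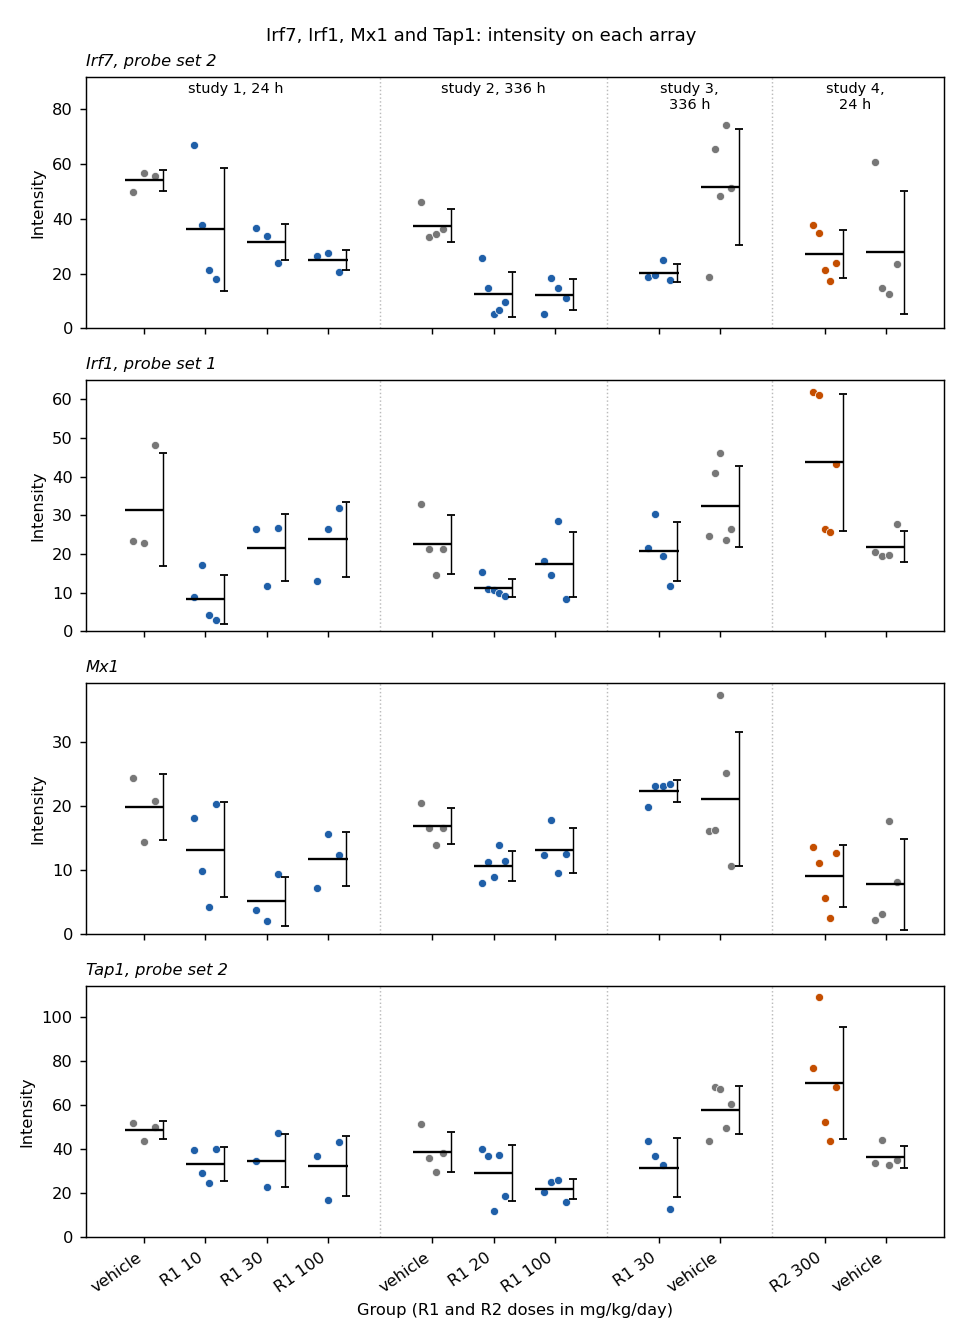
Signal (linear axis from 0) of Irf7 probe set 2, Irf1 probe set 1, Mx1 and Tap1 probe set 2 on every array, by group, with points for arrays, lines for means and bars for SD; vehicle is gray, R1 blue and R2 orange. Irf7 arrays at 20 and 100 mg/kg/day of R1 for 336 h sit at 5.08 to 25.8, all below the 33.2 to 46.2 of their vehicle.

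Of the class I genes, RT1-S3, a non-classical class I gene of the rat MHC, was lower with both compounds and was called by at least 1 of its 3 probe sets in 5 of 7 comparisons. In study 1, RT1-S3 probe set 1 had signals of 142, 149 and 154 with vehicle. It had 152, 138, 87.3 and 99.5 at 10, 60.1, 101 and 88.0 at 30 and 47.0, 57.5 and 76.2 at 100 mg/kg/day of R1 for 24 h. The upper doses lay below every vehicle array and the lowest dose overlapped vehicle. The changes were -0.34 ± 0.24, -0.85 ± 0.25 and -1.29 ± 0.25 (adjusted p = 0.68, 0.08 and 0.000526), and the 100 mg/kg/day arrays were also lower than those at 10 mg/kg/day (-0.94 ± 0.24, adjusted p = 0.0137). That difference between doses was not called without R1 10 replicates 1 or 2 or R1 100 replicates 1 or 2 (adjusted p 0.0542 to 0.139).

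In study 2, RT1-S3 probe set 1 had 131, 95.0, 84.7 and 82.3 with vehicle. It had 41.6, 62.7, 59.5, 65.1 and 50.4 at 20 and 35.2, 40.6, 28.3 and 27.3 at 100 mg/kg/day of R1 for 336 h. The dose groups overlapped neither vehicle nor each other. The changes were -0.78 ± 0.21 at 20 mg/kg/day (adjusted p = 0.0188) and -1.49 ± 0.22 at 100 (adjusted p = 1.46e-06), where the mean signal was 32.8 ± 6.24 (SD, n = 4), against 98.3 ± 22.5 with vehicle (n = 4). The difference between 100 and 20 mg/kg/day was -0.72 ± 0.21, adjusted p = 0.0374. The call at 20 mg/kg/day ended without vehicle replicate 1 (0.129), without R1 replicate 1 (0.0681) and with the replicate block (0.0589). Probe set 3, not called at 20 mg/kg/day, was called there with 4 times the offset, the stricter filter, weighted arrays and without R1 replicate 4 (adjusted p 0.0156 to 0.0438). The difference between doses ended without R1 20 replicates 2 to 5 or R1 100 replicates 1, 3 or 4, each left out alone (adjusted p 0.0531 to 0.136), and under 4 other settings (0.0572 to 0.108).

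In study 3, RT1-S3 probe set 1 had 46.0, 72.6, 35.9 and 56.7 at 30 mg/kg/day of R1 for 336 h, against 87.9, 148, 152, 128 and 118 with vehicle. In study 4, it had 65.8, 47.1, 49.5, 61.3 and 58.6 with R2, against 138, 79.3, 121 and 129 with vehicle. Neither pair of groups overlapped. The changes were -1.24 ± 0.21, adjusted p = 2.62e-05 in study 3 and -0.99 ± 0.21, adjusted p = 0.000502 in study 4, and they were called under all alternatives run. Probe sets 2 and 3 were called at 100 mg/kg/day for 336 h (-1.20 ± 0.33 and -1.57 ± 0.34), at 30 mg/kg/day for 336 h (-1.25 ± 0.31 and -1.10 ± 0.32) and with R2 (-1.14 ± 0.31 and -1.02 ± 0.32). After 24 h of R1 probe set 2 changed by 0.30, 0.15 and -0.42 at 10, 30 and 100 mg/kg/day, with a vehicle array as low as 102, and probe set 3 by -0.79, -1.16 and -0.86, none of them called. Calls of probe set 2 ended without vehicle replicate 1 of study 2 (0.0653) and without R1 30 replicate 3 (0.0894). Calls of probe set 3 ended without R1 30 replicates 1 or 3 (adjusted p 0.0509 to 0.105) and, for R2, without R2 replicates 3 or 4 or vehicle replicates 3 or 4 (0.0513 to 0.151) or with the study alone (0.0856).

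**Figure D4:**
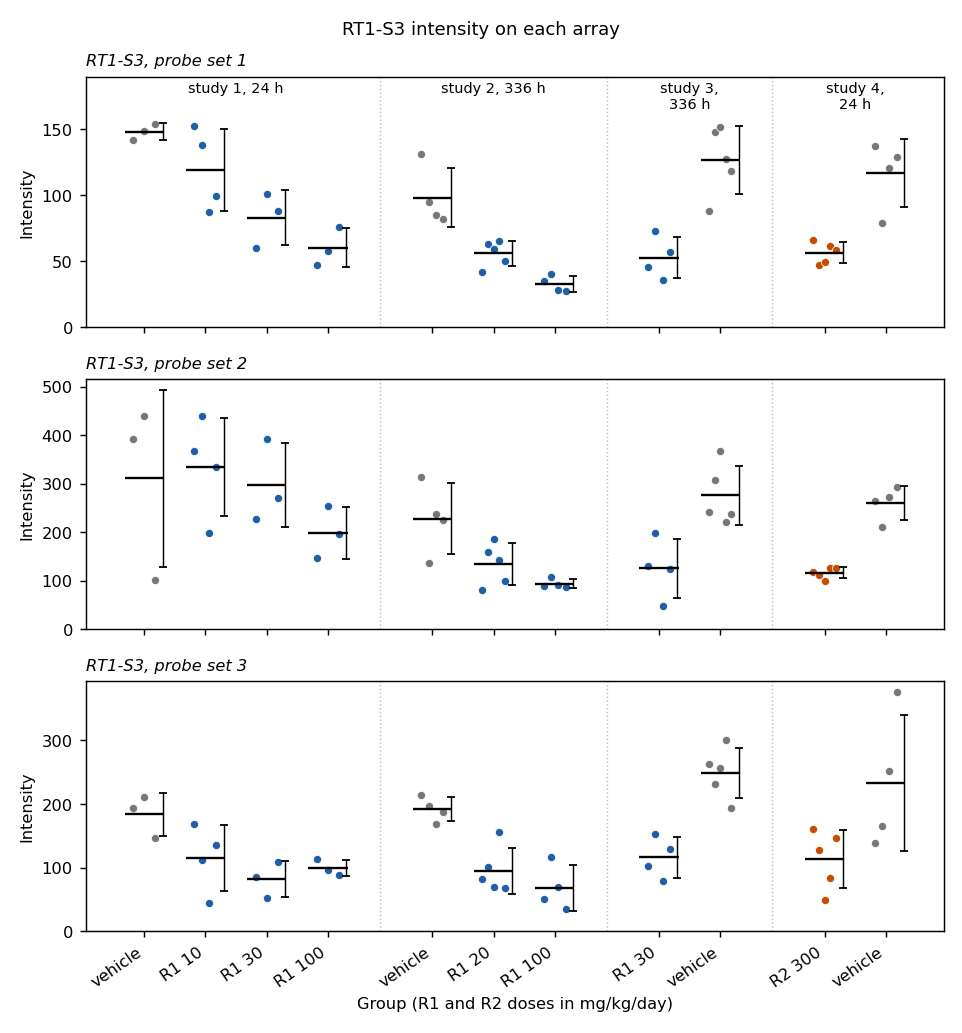
Signal (linear axis from 0) of the 3 RT1-S3 probe sets on every array, by group, with points for arrays, lines for means and bars for SD; vehicle is gray, R1 blue and R2 orange. Probe set 1 reached 27.3 to 40.6 at 100 mg/kg/day of R1 for 336 h, against 82.3 to 131 with vehicle.

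B2m, the light chain of class I molecules, was not called. Its change at 100 mg/kg/day of R1 for 336 h was -0.47 ± 0.19, adjusted p = 0.121, with signals of 1490.2, 1857, 1559 and 1048, against 2426, 1786, 2221 and 1730.4 with vehicle. The groups overlapped, and in all 7 comparisons its change was negative, between -0.47 and -0.11. RT1-M3-1, whose mouse counterpart presents formylated peptides, changed by -0.51 to 0.46 without a call. The other 6 tested class I probe sets, of RT1-A, RT1-A3, RT1-CE12, RT1-CE16, RT1-M5 and RT1-N3, were not called either. RT1-A, a classical class I gene on a family probe set, named after its values were seen, came closest (adjusted p = 0.0504) with -0.90 ± 0.30 at 100 mg/kg/day for 336 h. It was called there with the replicate block and with the study alone (adjusted p = 0.0183 each), under 4 other settings (0.0397 to 0.0494) and without vehicle replicates 3 or 4 or R1 replicate 2 (0.0268 to 0.0469), and RT1-CE16 was called with the study alone (0.0377). There, all 11 class I probe sets were negative with a median of -0.63, 3 of them called and all 3 of RT1-S3.

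Tap1 and Tap2 form the pump that loads peptides onto class I molecules. Tap1 probe set 2 had 43.9, 37.0, 32.9 and 13.0 at 30 mg/kg/day of R1 for 336 h, against 43.7, 68.4, 67.3, 49.9 and 60.8 with vehicle. The groups touched, with R1 replicate 1 just above the lowest vehicle array, and the change was -0.91 ± 0.29, adjusted p = 0.0368. With R2 it had 76.8, 109, 52.3, 43.953 and 68.5, against 33.7, 44.2, 33.1 and 35.3 with vehicle. There the R2 arrays were mostly higher, overlapping through R2 replicate 4, and the change was 0.83 ± 0.29, adjusted p = 0.0473. The first call ended when R1 30 replicate 3 or 4, or vehicle replicate 2, 3 or 5, was left out (adjusted p 0.0635 to 0.289), with no filter (0.0519) and with the study alone (0.0603). The second ended without R2 replicates 1, 2 or 5 or any 1 vehicle array (0.0503 to 0.163) and under 6 other settings (0.0536 to 0.367). Probe set 1 changed by -0.27 ± 0.24 and 0.52 ± 0.24 in these comparisons and Tap2 by -0.20 ± 0.24 and 0.28 ± 0.24, none of them called. At 100 mg/kg/day for 336 h Tap1 probe set 2 changed by -0.74 ± 0.31 with no overlap and no call (adjusted p = 0.138).

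MHC class II genes were lower after 336 h at 100 mg/kg/day of R1, where all 20 tested probe sets were negative with a median of -1.02 and 9 probe sets of 4 genes were called, beside 5.2% of all probe sets lower. All 4 probe sets of Cd74, the invariant chain that guides class II molecules to their peptides, were among them. Cd74 probe set 1 had signals of 804, 394, 382 and 452 with vehicle. It had 497, 556, 856, 622 and 294 at 20 and 235, 281, 215 and 103 at 100 mg/kg/day. The 100 mg/kg/day arrays lay below all vehicle arrays and the 20 mg/kg/day arrays overlapped vehicle. Its mean was 209 ± 75.6 at 100 mg/kg/day and 508 ± 199.7 with vehicle (SD, n = 4 each), a change of -1.29 ± 0.29, adjusted p = 0.00154. Probe sets 2, 3 and 4 changed by -1.33 ± 0.31, -0.77 ± 0.21 and -1.46 ± 0.29 (adjusted p = 0.00166, 0.0117 and 0.000322), with no overlap on any of them.

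RT1-Da, the rat DR alpha chain, had signals of 247, 279, 300.0 and 186 on probe set 2 at 100 mg/kg/day of R1 for 336 h, against 846, 436, 443 and 503 with vehicle. No arrays overlapped, and the change was -1.10 ± 0.28, adjusted p = 0.00511. Probe set 1 of RT1-Da changed by -0.95 ± 0.28, adjusted p = 0.0173, its groups overlapping through vehicle replicate 2. RT1-Bb, the beta chain of the rat DQ counterpart, had 53.0, 95.4, 97.1 and 97.8, against 321, 138, 150.4 and 227 with vehicle. RT1-Ba, its alpha chain, had 197, 160.3, 124 and 63.1 on probe set 1, against 508, 248, 220.3 and 276 with vehicle. Neither gene's groups overlapped, and the changes were -1.22 ± 0.25, adjusted p = 0.000568 for RT1-Bb and -1.22 ± 0.34, adjusted p = 0.0113 for RT1-Ba probe set 1. RT1-Ba probe set 2 changed by -1.21 ± 0.32, adjusted p = 0.00773. Another tested RT1-Ba probe set (median signal 18.5) was not called in any comparison with vehicle. The called probe sets of RT1-Ba and RT1-Bb carry the array's suffix for shared sequences, so their values are uncertain as to the gene. The other RT1-Bb probe sets tested changed by -0.75 ± 0.95 and -1.52 ± 0.75, neither of them called. The dim probe set of RT1-DMa, a chain of the DM molecule that edits class II peptides, changed by -0.38 ± 0.46 (adjusted p = 0.746). The brighter RT1-DMa probe set (median signal 45.1, against 8.89) was not called in any comparison with vehicle.

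Vehicle replicate 1 of study 2 was the highest of its group on each of these class II probe sets, and its Cd74 probe set 2 signal was 545, against 221 to 257 on the other vehicle arrays. Leaving it out ended the calls of RT1-Ba probe sets 1 and 2 (adjusted p = 0.0883 and 0.0676), RT1-Da probe sets 1 and 2 (0.138 and 0.0503) and Cd74 probe set 3 (0.0988), while 3 Cd74 probe sets and RT1-Bb were still called. Leaving out R1 100 replicate 4 ended RT1-Ba probe set 1 (0.1), and leaving out R1 100 replicate 1 or vehicle replicate 4 ended RT1-Da probe set 1 (0.103 and 0.0624), as did fitting study 2 alone (0.133).

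In the same comparison leukocyte markers lay lower, Kupffer cell markers were called in both directions, and dendritic and B cell markers were not called. All 4 tested leukocyte markers of 6 listed were negative at 100 mg/kg/day for 336 h with a median of -0.88, and Cd53 (-0.89 ± 0.26) and Cd37 (-1.07 ± 0.34) were called. Their summed signal was 47.6 to 73.3 at 100 mg/kg/day, against 113 to 119 with vehicle. Of 9 Kupffer cell marker probe sets of 5 genes tested, of 12 genes listed, 3 were lower, of Clec4f (-1.31 ± 0.23) and C1qb (-0.81 ± 0.20 and -1.12 ± 0.28), and 2 of Cd14 were higher (0.80 ± 0.24 and 0.67 ± 0.20), with a median of -0.72. Their summed signal of 1275 to 1963 overlapped the 1643 to 2603 of vehicle. Kdr, an endothelial marker, was lower (-0.91 ± 0.27), and the summed endothelial signal was 77.2 to 128, against 141 to 175 with vehicle. Of dendritic, B, and T and NK cell markers, 0 of 1, 0 of 1 and 0 of 5 tested probe sets were called by limma, 0 of them at an unadjusted p under 0.05. Their summed signals were 5.73 to 16.5, 2.72 to 23.7 and 50.3 to 69.5 at 100 mg/kg/day, against 4.53 to 13.5, 9.79 to 16.0 and 53.1 to 74.7 with vehicle. Csf1r, Cd2, Cd3d, Cd3g, Klrd1 and Prf1 were too dim to test. The part of these markers in the class II result was not tested.

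**Figure D5:**
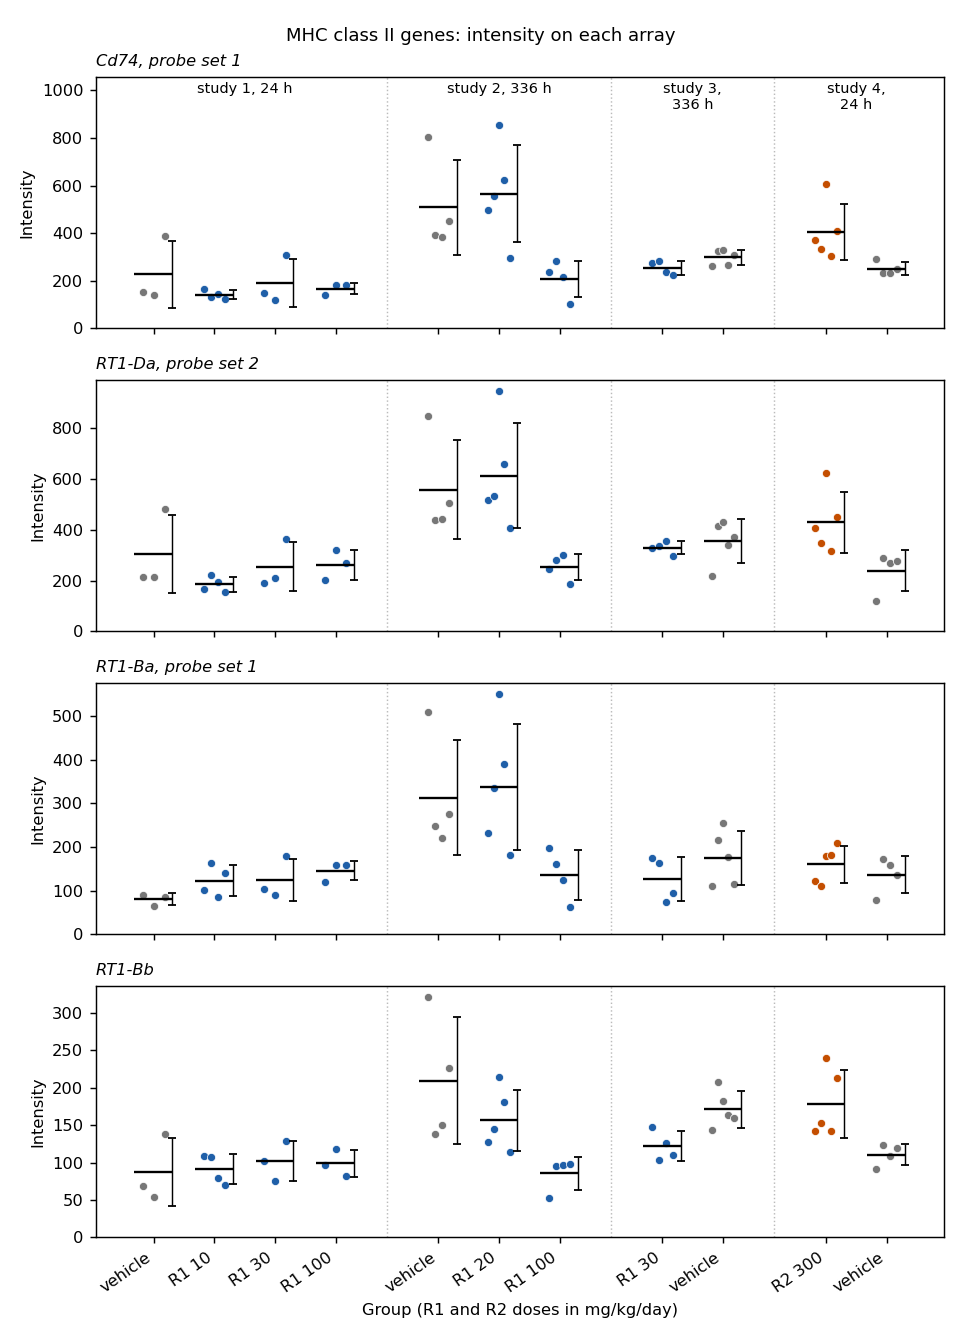
Signal (linear axis from 0) of Cd74 probe set 1, RT1-Da probe set 2, RT1-Ba probe set 1 and RT1-Bb on every array, by group, with points for arrays, lines for means and bars for SD; vehicle is gray, R1 blue and R2 orange. Cd74 probe set 1 lay at 103 to 281 at 100 mg/kg/day of R1 for 336 h, below all its vehicle arrays of 382 to 804.

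At 20 mg/kg/day for 336 h limma called 0 of 20 class II probe sets, 0 of them at an unadjusted p under 0.05, with a median of -0.22. At 30 mg/kg/day for 336 h it called 0, 1 at an unadjusted p under 0.05, with a median of -0.27, and Cd74 probe set 1 had 275, 284, 238 and 222, against 264, 325, 330.3, 265 and 306 with vehicle. Set against 20 mg/kg/day, the 100 mg/kg/day dose lowered 8 of 55 members (14.5%, beside 1.98% of all probe sets) and raised 0 (2.09% of all). These were all 4 Cd74 probe sets, RT1-Ba probe set 1, RT1-Da probe set 2, RT1-Bb and RT1-S3 probe set 1. The differences were -1.43 ± 0.28, -1.53 ± 0.29, -0.75 ± 0.20 and -1.23 ± 0.28 for Cd74 probe sets 1 to 4 (adjusted p = 0.00045, 0.000284, 0.0227 and 0.00338). They were -1.30 ± 0.32, adjusted p = 0.00913 for RT1-Ba, -1.23 ± 0.27, adjusted p = 0.00188 for RT1-Da and -0.85 ± 0.24, adjusted p = 0.0321 for RT1-Bb.

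Of these differences between doses, Cd74 probe set 3 was not called without R1 20 replicates 3 or 4 or R1 100 replicates 1, 3 or 4 (adjusted p 0.0516 to 0.112). RT1-Bb was not called without R1 20 replicates 3 or 4 or R1 100 replicate 1 (0.0849 to 0.215), and RT1-Ba probe set 1 without R1 100 replicate 4 (0.101). Weighted arrays and the study alone ended Cd74 probe set 3 (0.0991 and 0.0973) and RT1-Bb (0.173 and 0.116), and the replicate block also ended RT1-Bb (0.062).

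After 24 h of R1, limma called 0 of 20 class II probe sets at each dose, with 1, 0 and 1 at an unadjusted p under 0.05 at 10, 30 and 100 mg/kg/day and medians of -0.22, -0.01 and -0.06. Cd74 probe set 1 had 153, 139 and 388 with vehicle. It had 167, 130.2, 144 and 123 at 10, 148, 120.5 and 306 at 30 and 141, 180.4 and 181 at 100 mg/kg/day. Vehicle replicate 3 stood above the rest, as on the other Cd74 probe sets, and all groups overlapped. The effect of 100 mg/kg/day at 336 h minus that at 24 h was tested directly, across 2 studies with their own vehicles. It lowered 3 members (5.45%, beside 3.13% of all probe sets), a share near the background, and raised 0 (2.17% of all). The 3 were RT1-Ba probe set 1 (-2.06 ± 0.52, adjusted p = 0.00924), RT1-Bb (-1.49 ± 0.39, adjusted p = 0.0128) and Cd74 probe set 4 (-1.79 ± 0.45, adjusted p = 0.00947). RT1-Ba probe set 1 changed by 0.84 ± 0.39 at 24 h and -1.22 ± 0.34 at 336 h, and at 24 h its 119.9, 159 and 159 lay above the 90.5, 64.5 and 85.6 of vehicle. RT1-Bb changed by 0.28 ± 0.29 at 24 h and Cd74 probe set 4 by 0.33 ± 0.34. The differences of RT1-Bb and Cd74 probe set 4 ended without study 1 vehicle replicate 2 (0.0812 and 0.0841), and that of RT1-Bb also without vehicle replicate 1 (0.0526) or R1 100 replicate 2 of study 1 (0.0512). Study and time cannot be told apart here.

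With R2, class II genes lay higher: 15 of 20 tested probe sets were positive with a median of 0.68, and 5 probe sets of 4 genes were called, beside 7.44% of all probe sets higher. Cd74 probe set 3 had 117, 133, 158, 104 and 114 with R2, against 61.4, 81.9, 75.2 and 72.6 with vehicle. RT1-Da probe set 2 had 405, 348, 623, 316 and 449 with R2, against 119, 289, 269.9 and 277 with vehicle. RT1-Ba probe set 2 had 158, 208, 162, 112 and 168 with R2, against 62.8, 90.5, 83.9 and 76.3 with vehicle. On each of these every R2 array lay above every vehicle array, and the changes were 0.75 ± 0.20, adjusted p = 0.00741 for Cd74, 0.88 ± 0.27, adjusted p = 0.0174 for RT1-Da and 1.00 ± 0.30, adjusted p = 0.018 for RT1-Ba. Cd74 probe set 2 (0.92 ± 0.29, adjusted p = 0.0242) and the dim RT1-DMa probe set (1.32 ± 0.43, adjusted p = 0.0305) were called with overlap between groups. That RT1-DMa probe set had 31.1, 22.6, 19.8, 2.80 and 39.0 with R2, against 4.10, 12.5, 4.47 and 4.15 with vehicle, and R2 replicate 4 lay below all vehicle arrays. The brighter probe set of RT1-DMa was not called with R2. Cd74 probe sets 1 and 4, RT1-Da probe set 1 and RT1-Bb also had no overlap and were higher by 0.64 ± 0.28, 0.77 ± 0.28, 0.71 ± 0.26 and 0.64 ± 0.24 without a call (adjusted p = 0.117, 0.0523, 0.0588 and 0.063). Cd74 probe set 4 was called with 4 times the offset, the stricter filter, the study alone and without R2 replicate 4 (adjusted p 0.0175 to 0.0479), and RT1-Da probe set 1 and RT1-Bb with the stricter filter and without R2 replicate 4 (0.0341 to 0.0473).

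Of the R2 calls, Cd74 probe set 3 was made under all alternatives. RT1-Da probe set 2 lost its call without vehicle replicate 1, whose 119 was far below the 269.9 to 289 of the other vehicle arrays (adjusted p = 0.161), and without R2 replicate 3 (0.0591). RT1-Ba probe set 2 lost it without vehicle replicate 1 (0.0668) or R2 replicate 2 (0.0567). Cd74 probe set 2 lost it without vehicle replicates 2 or 4 or R2 replicates 2 or 3 (adjusted p 0.0667 to 0.0774), and RT1-DMa without vehicle replicates 1, 3 or 4 or R2 replicates 1, 2 or 5 (0.0675 to 0.0958). Weighted arrays ended all 4 of these (0.0545 to 0.144), and leaving out R2 replicates 1 and 2 together ended RT1-Ba probe set 2, Cd74 probe set 2 and RT1-DMa (0.113 to 0.222). The study alone ended RT1-Da probe set 2 (0.0589) and RT1-DMa (0.121), and the replicate block RT1-DMa (0.0708). Beside them, of 9 Kupffer cell marker probe sets 6 were positive and 3 negative with a median of 0.15, and 2 of C1qc were called higher (1.40 ± 0.38 and 1.45 ± 0.49). The summed Kupffer cell signal was 1618 to 1823 with R2, against 1397 to 1788 with vehicle, and the summed leukocyte signal 64.2 to 116, against 80.9 to 94.9. Of the leukocyte markers 2 of 4 were positive and none was called. The part of these markers was not tested.

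R1 and R2 were given at different doses in different studies, so their values stand side by side without a test. After 24 h, RT1-S3 probe set 1 changed by -0.99 ± 0.21 with 300 mg/kg/day of R2 and by -1.29 ± 0.25 with 100 mg/kg/day of R1. Cd74 probe set 3 changed by 0.75 ± 0.20 with R2 and -0.04 ± 0.25 with R1, RT1-Da probe set 2 by 0.88 ± 0.27 and -0.12 ± 0.32, and Irf7 probe set 2 by 0.17 ± 0.37 and -1.04 ± 0.44, in that order.

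Other genes of these pathways were measured from lists that hold no member. Of 20 further genes of antigen processing and presentation, 12 were tested by 24 probe sets, and at 100 mg/kg/day of R1 for 336 h 4 probe sets were lower and 1 higher, with a median of 0.20. The lower ones were of Ctss, the lysosomal protease that trims the invariant chain (-1.17 ± 0.24), and of Fcgrt, the neonatal Fc receptor (-0.66 ± 0.13, -0.85 ± 0.17 and -0.71 ± 0.14). The higher one was of Hfe, a class I-like regulator of iron uptake (1.00 ± 0.28). At 20 mg/kg/day Hfe was higher (1.21 ± 0.27) and 1 Fcgrt probe set lower (-0.41 ± 0.13). At 30 mg/kg/day for 336 h 4 were lower, including Psmb8, a catalytic subunit of the immunoproteasome (-0.82 ± 0.21), and Cd1d1, which presents lipids (-0.82 ± 0.22). Cd1d1 was also lower at 100 mg/kg/day for 24 h (-1.03 ± 0.26) and with R2 (-0.78 ± 0.22), where both probe sets of Pdia3, a folding enzyme of the peptide-loading complex, were lower too (-1.01 ± 0.21 and -0.53 ± 0.19). The vehicles of the 336 h studies also differed on this list. In study 3 against study 2, 11 of its 24 probe sets were higher (8.55% of all probe sets) and 3 lower (9.29% of all). Psmb8 (0.83 ± 0.21) and Cd1d1 (0.68 ± 0.22) were among the higher ones.

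Of 21 interferon, receptor and signalling genes, 9 were tested by 12 probe sets, and limma called 0 of them in each of the 7 comparisons, with 0 to 3 at an unadjusted p under 0.05. Of 26 further interferon-induced genes, 7 were tested by 11 probe sets. Cxcl10, a chemokine induced by interferon-gamma, was lower at 20 mg/kg/day of R1 for 336 h (-1.21 ± 0.33) and higher at 30 mg/kg/day for 336 h (1.14 ± 0.33) and with R2 (1.23 ± 0.33). Between the vehicles of these 336 h studies Cxcl10 also differed, lower in study 3 than in study 2 (-0.94 ± 0.33). Apobec1, a cytidine deaminase that edits Apob RNA, was lower at 30 mg/kg/day for 336 h (-1.06 ± 0.21) and with R2 (-0.63 ± 0.21), and Nos2, the inducible nitric oxide synthase, was lower with R2 (-1.22 ± 0.39).

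Cell markers at the other 336 h doses stood as follows. At 20 mg/kg/day 1 of 9 Kupffer cell marker probe sets was called lower, of Clec4f (-0.88 ± 0.22), and 0 higher. The summed Kupffer cell signal was 1164 to 1621, below the 1643 to 2603 of vehicle. The summed leukocyte signal was 66.9 to 91.3, against 113 to 119 with vehicle, and the summed endothelial signal 96.0 to 133, against 141 to 175. At 30 mg/kg/day Clec4f (-0.82 ± 0.22) was the 1 Kupffer cell marker probe set of 9 called, and it was lower. Coro1a of the leukocyte markers (-1.37 ± 0.32) and Kdr (-1.19 ± 0.25) were lower too. The summed Kupffer cell signal was 1157 to 1552, below the 1586 to 2260 of vehicle. The summed leukocyte signal was 36.1 to 60.5, against 58.6 to 105, and the summed endothelial signal 58.1 to 89.3, overlapping the 78.5 to 159 of vehicle. The part of these markers in the Irf7, RT1-S3 and Tap1 results was not tested.

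Vehicle livers of different studies also differed. At 336 h, study 3 against study 2 gave 3 higher members (5.45%, beside 8.55% of all probe sets) and 2 lower (3.64%, beside 9.29%). Irf3 (1.23 ± 0.20), Tap2 (0.91 ± 0.24) and Stat5b (0.67 ± 0.19) were higher in study 3, and Cd74 probe set 4 (-1.30 ± 0.28) and Stat3 probe set 2 (-1.004 ± 0.28) were lower. Class II probe sets were negative in 17 of 20, with a median of -0.64. At 24 h, study 4 against study 1 gave 3 higher members (5.45%, beside 2.63% of all) and 0 lower (beside 3.02%). These were Irf3 (1.49 ± 0.23), RT1-M3-1 (1.11 ± 0.32) and RT1-DMb on 1 of its 3 probe sets (1.48 ± 0.38), the last named after its value was seen. Without single arrays, the calls of Stat5b (study 2 vehicle replicate 2, adjusted p = 0.0623), RT1-M3-1 (replicates 1 or 2 of study 1 or 1 or 3 of study 4, adjusted p 0.0616 to 0.385) and RT1-DMb (replicates 1 or 2 of study 1 or 1 of study 4, 0.0624 to 0.159) ended. Animals, vehicle and processing batch of a study cannot be told apart.

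The remaining 21 tested members, of which none was called with vehicle, had changes between -1.52 and 1.61. Both ends were of RT1-Bb probe sets, -1.52 ± 0.75 at 100 mg/kg/day of R1 for 336 h and 1.61 ± 0.90 with R2 (adjusted p = 0.237 and 0.243). Ifitm3, which hinders virus entry and is named here after its values were seen, changed by -0.94 ± 0.34 at 20 mg/kg/day for 336 h (adjusted p = 0.131). It had 861, 822, 687, 616 and 664, against 1391, 1848, 1183 and 1217 with vehicle. All R1 arrays lay below all vehicle arrays, and the change was called with the study fitted alone (adjusted p = 0.00232).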

How the data were processed

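Rat liver RNA was hybridised to 44 arrays, 1 per sample, of an Affymetrix type with 8799 probe sets, 59 of them controls. The deposited intensity values are linear and were made with MAS5, per the submitters' processing notes, which name no version or scaling target. All arrays held the same sorted values, so the authors' deposited values had been quantile normalized, a step the labels do not state. Genes were taken from the platform's annotation: 7017 probe sets had 1 symbol, 297 several and 1426 none. Array number, not counts, limits precision.

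Values were log2 transformed after adding an offset of 2.89 (their percentile 20), and probe sets whose highest group mean was under 9.17 (percentile 40) were left out, leaving 6361. limma 3.58.1 in R 4.3.3 fitted 1 mean for each of 11 groups with its spread modelled on the mean level (33 residual degrees of freedom), tested on simulated data first. Each compound group was set against the vehicle of its study, the highest dose against the lowest, the effects at 336 h against those at 24 h, and vehicles between studies, which made 13 comparisons, each adjusted by Benjamini-Hochberg. The alternatives were 0.5 and 4 times the offset, no filter and a stricter one (percentile 60), arrays centred on the other probe sets, no trend, array weights, each study fitted alone, the replicate number as a block, R2 replicates 1 and 2 left out together, and each array left out in turn.

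Named probe sets were those called in at least 1 comparison with vehicle, all those of 19 listed genes, of which 13 were on the array, and the 2 of lowest p in each direction per comparison. The members, lists and tests were chosen with earlier results of these data known. Figures and tables were made in Python 3.11.15.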

Additional observations from a re-analysis of the deposited data

Results flagged for a closer look

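In groups of 4 or 5 arrays, 1 array stood apart from the others in 16 of 272 groups and probe sets tested, where chance gives about 1 in 20. B2m was 1538 in replicate 4 of 10 mg/kg/day of R1 for 24 h and 1769.6 to 1816 in the others. B2m lay at 1066 in replicate 2 of R2, with 1527 to 1753 in the others. RT1-M3-1 was 47.0 in replicate 3 of 20 mg/kg/day of R1 for 336 h and 21.6 to 25.2 in the others. RT1-M3-1 lay at 50.6 in replicate 3 of 30 mg/kg/day of R1 for 336 h, with 36.3 to 38.3 in the others. Cd74 probe set 2 was 545 in replicate 1 of study 2 vehicle and 221 to 257 in the others. RT1-Bb lay at 53.0 in replicate 1 of 100 mg/kg/day of R1 for 336 h, with 95.4 to 97.8 in the others. The dim RT1-DMa probe set was 12.5 in replicate 2 of study 4 vehicle and 4.10 to 4.47 in the others. RT1-Da probe set 1 lay at 72.7 in replicate 4 of 10 mg/kg/day of R1 for 24 h, with 96.9 to 102 in the others. RT1-Da probe set 1 was 150.4 in replicate 2 of study 3 vehicle and 123 to 128 in the others. RT1-Da probe set 2 lay at 119 in replicate 1 of study 4 vehicle, with 269.9 to 289 in the others. Gbp2 was 1.31 in replicate 3 of study 4 vehicle and 6.42 to 7.80 in the others. Mx1 lay at 19.8 in replicate 1 of 30 mg/kg/day of R1 for 336 h, with 23.1 to 23.5 in the others. Irf1 probe set 1 was 27.8 in replicate 4 of study 4 vehicle and 19.4 to 20.4 in the others. Irf1 probe set 2 lay at 179.5 in replicate 1 of study 2 vehicle, with 92.6 to 102 in the others. The brighter Stat5a probe set was 23.2 in replicate 4 of 100 mg/kg/day of R1 for 336 h and 15.8 to 16.6 in the others. The same Stat5a probe set lay at 32.2 in replicate 1 of R2, with 9.87 to 12.4 in the others. The effect of R1 at 100 mg/kg/day differed between 336 h and 24 h for RT1-Ba probe set 1 (-2.06 on the log2 scale), RT1-Bb (-1.49) and Cd74 probe set 4 (-1.79), each with an adjusted p by limma given above.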

How the results depend on the processing

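The 33 called member values in comparisons with vehicle gave 579 values under the alternatives, of which 490 kept direction and call, 89 lost the call and 0 reversed, and 13 of the 33 were called under every alternative. Counts of members called moved by over 1.5 times as follows. With the replicate block they were 2 at R1 100 mg/kg/day for 24 h, 0 at R1 30 and R1 10 for 24 h and 1 at R1 20 for 336 h, against 1, 1, 1 and 2. With each study fitted alone they were 2 at R1 100 and 0 at R1 10 for 24 h, 1 for R1 100 against 10 (3 in the main analysis) and 5 for R1 100 against 20 (8). With weighted arrays they were 2 at R1 100 for 24 h, 4 with R2 (9), 5 for R1 100 against 20, 15 between the 336 h vehicles (5) and 8 between the 24 h vehicles (3). No filter (8740 tested) gave 0 at R1 30 for 24 h and 3 at R1 30 for 336 h (5), the stricter filter (4275) 2 at R1 100 and 0 at R1 30 for 24 h, where Mx1 was no longer tested, and no trend 0 at R1 30 for 24 h. Leaving out R2 replicates 1 and 2 together gave 5. The cause of these moves was not tested except where named.

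Settings that added calls to named genes are given beside them or here. Irf7 probe set 1 was called at R1 30 for 336 h with weighted arrays (adjusted p = 0.0412) and with R2 without vehicle replicate 1 (0.0257). Irf1 probe set 2 was called at R1 100 for 336 h without R1 replicate 3 (0.0178) and at R1 30 for 336 h without R1 replicates 2 or 4 or vehicle replicate 1 (0.0427 to 0.0495). Stat5b was called at R1 30 for 336 h without R1 replicate 1 (0.0314). The other Irf3 probe set was called higher with R2 with 4 times the offset (0.0368) and without vehicle replicate 3 (0.0347) or R2 replicate 4 (0.0491). RT1-DMb was called higher on 1 probe set at R1 100 for 24 h without vehicle replicate 3 (1.55, 0.00607). Its other probe sets were called lower at R1 100 for 336 h with the study alone (-1.29, 0.0376) and with R2 without R2 replicate 3 (-0.79, 0.0409).

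Leaving out 1 array at a time gave 0 to 1 members at R1 10, 0 to 1 at R1 30 and 1 to 2 at R1 100 for 24 h, 1 to 3 at R1 20, 8 to 16 at R1 100 and 1 to 7 at R1 30 for 336 h, and 5 to 13 with R2. It gave 0 to 2 for R1 100 against 10, 5 to 9 for R1 100 against 20, 1 to 6 for the effect of R1 100 and 0 to 1 for that of R1 30 between times, 4 to 7 between the 336 h vehicles and 1 to 4 between the 24 h vehicles. Deviations of same-numbered arrays were at most weakly correlated (-0.0898 to 0.153), and the numbers were not taken as pairs in the main fit. In studies 1 and 2 their median correlations were 0.041 and 0.055, above the -0.017 and -0.032 of arrays with different numbers. In studies 3 and 4 the medians were -0.036 and 0.0033, against -0.0018 and 0.0036. With the replicate block R1 100 for 336 h gave 17, and the block could not be fitted between vehicles of different studies. Each study alone was not run for comparisons across studies. With 3 to 5 arrays per group, small changes were not detectable.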
